A study of Mus musculus with 4 samples.

Results

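Genes named as Trim, Rnf, Fbx, Klhl, Asb, Cul, Ube2 or Usp family members, each name followed by its number or letter as in the deposited table, were described in mouse muscle progenitor cells that received Twist2 or GFP by retrovirus. Genes entered by their symbols, and the families themselves were picked with earlier results of these data known. The table listed 73 such genes among 3760. In the GENCODE M21 annotation of GRCm38, 385 protein-coding genes carry such names. The listed genes were 13 of 68 annotated Trim genes, 14 of 85 Rnf genes, 13 of 77 Fbx genes, 13 of 36 Klhl genes, 2 of 18 Asb genes, 3 of 8 Cul genes, 5 of 37 Ube2 genes and 10 of 56 Usp genes. A name outside the table was not analysed here and is not shown to be silent, because the table is itself a selection: every listed gene reached 10 CPM (reads scaled to the total of the library) in at least 2 libraries and differed 2-fold or more from the GFP growth medium library in at least 1 other library.

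The cells were cultured myoblasts from skeletal muscle of adult C57BL/6 mice, all of them labelled Twist2+, so the GFP controls come from the same kind of cell. They were grown on matrigel in Ham's F10 with 20% fetal bovine serum and were exposed to retrovirus for 24 h, with 24 h of growth medium after it. The design had 4 groups, each with 1 library. Twist2 differentiation medium (Twist2 DM) is cells given the Twist2 virus and kept in DMEM with 2% horse serum to day 5, and GFP differentiation medium (GFP DM) is the GFP virus control on the same day. Twist2 growth medium (Twist2 GM) and GFP growth medium (GFP GM) are the cells harvested before differentiation. The labels name neither the promoter of the virus nor how many animals the cells came from. With 1 library a group, no difference has a replicate check and no test was made.

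Ubiquitin is passed from an activating enzyme to a conjugating enzyme (the Ube2 genes) and from there to a protein chosen by a ligase. RING proteins of the Trim and Rnf families bring the conjugating enzyme to the substrate themselves, while cullins (Cul) are scaffolds on which F-box (Fbx), kelch (Klhl) and SOCS-box (Asb) proteins choose the substrate, and Usp enzymes remove ubiquitin again. In striated muscle, MuRF proteins of the Trim family and several kelch proteins sit at the sarcomere, where they take part in its assembly, upkeep and breakdown.

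The libraries held 12362290 reads in Twist2 DM, 9235281 in GFP DM, 11068073 in Twist2 GM and 9744075 in GFP GM. Twist2 itself had 674 CPM in Twist2 DM, 0 reads in GFP DM (which allows up to 0.325 CPM), 1438 CPM in Twist2 GM and 1 read in GFP GM, which matches the virus labels. Both GFP libraries, although their cells are labelled Twist2+, thus held almost no Twist2 reads. Of 10 markers of myoblasts and muscle, 9 were listed, with a summed level of 10490 CPM in Twist2 DM, 50558 CPM in GFP DM, 1600 CPM in Twist2 GM and 3588 CPM in GFP GM. Myh3 and Acta1 led that sum after differentiation, Myh3 with 2528 CPM in Twist2 DM and 27313 CPM in GFP DM. Of the myoblast genes in the list, Myod1 and Pax7 ran the other way between these libraries. Myod1 had 1068 CPM in Twist2 DM and 810 CPM in GFP DM, and Pax7 had 34.6 CPM in Twist2 DM and 4.01 CPM in GFP DM. Cdh15 was near level, with 800 CPM in Twist2 DM and 806 CPM in GFP DM. Higher in GFP DM were Myog (378 CPM in Twist2 DM, 1075 CPM in GFP DM) and Des (2935 CPM in Twist2 DM, 6503 CPM in GFP DM). Of 6 fibroblast markers, Ly6a, Dcn and Col3a1 were listed, and their sum was 8818 CPM in Twist2 DM, 561 CPM in GFP DM, 3086 CPM in Twist2 GM and 820 CPM in GFP GM. Nearly all of it was Col3a1 (8750 CPM in Twist2 DM), while Ly6a was lower after differentiation, with 3.32 CPM in Twist2 DM, 0 reads in GFP DM, 32.9 CPM in Twist2 GM and 11.0 CPM in GFP GM. Of 5 pericyte and smooth muscle markers, Acta2 and Rgs5 were listed and ran opposite ways. Acta2 had 5050 CPM in Twist2 DM, 7948 CPM in GFP DM, 113 CPM in Twist2 GM and 361 CPM in GFP GM. Rgs5 had 4.69 CPM in Twist2 DM, 0.108 CPM in GFP DM, 85.1 CPM in Twist2 GM and 51.7 CPM in GFP GM. No marker of endothelium, macrophages, Schwann cells or adipocytes was listed. The part of these shifts in the values that follow was not tested, and in bulk RNA fewer cells of a type and less RNA per cell cannot be told apart.

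The 73 genes together took 4727 CPM in Twist2 DM, 9703 CPM in GFP DM, 3943 CPM in Twist2 GM and 4694 CPM in GFP GM. The sum was highest in GFP DM and lay within a narrow range in the other 3 libraries. Within GFP DM, 5 genes, Trim72, Klhl41, Klhl13, Rnf11 and Ube2g2, made up 44.0% of that sum, and Trim72 alone 12.3%. Scaled by the longest annotated transcript, the highest levels in Twist2 DM were 155 CPM per kb for Trim72, 140 CPM per kb for Ube2g2 and 97.1 CPM per kb for Klhl41. In GFP DM the same scale gave 561 CPM per kb for Trim72, 375 CPM per kb for Klhl41 and 291 CPM per kb for Ube2g2. In growth medium the leaders were other genes: Ube2c led Twist2 GM with 58.4 CPM per kb, and Ube2d1 led GFP GM with 56.1 CPM per kb.

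Promoters are shown for 5 genes: Klhl41, Asb2, Trim63 and Klhl40 on the muscle side and Ube2c on the cell cycle side. The 4 muscle genes shown do not stand for all of them, since Trim72 led these in GFP DM with 1197 CPM, against 79.9 CPM for Trim63. The sequences are RefSeq's, on GRCm38.p6, from 250 bases before to 50 bases after the start of the gene, and are written 5′ to 3′ on the strand of the gene. In the first 4, capitals mark CANNTG, the E-box core that basic helix-loop-helix factors such as MyoD and Twist2 can bind. In Ube2c, capitals mark CCAAT or its reverse complement ATTGG, the box bound by NF-Y, and TTTGAA or its reverse complement TTCAAA, the core of the element known from cell cycle promoters.
Klhl41, chr2:69669870-69670169, plus strand: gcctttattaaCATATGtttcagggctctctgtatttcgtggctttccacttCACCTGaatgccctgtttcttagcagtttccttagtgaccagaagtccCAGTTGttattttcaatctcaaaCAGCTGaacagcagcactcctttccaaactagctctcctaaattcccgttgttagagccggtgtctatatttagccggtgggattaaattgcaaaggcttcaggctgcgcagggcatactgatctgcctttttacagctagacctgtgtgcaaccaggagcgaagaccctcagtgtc
Asb2, chr12:103355952-103356251, minus strand: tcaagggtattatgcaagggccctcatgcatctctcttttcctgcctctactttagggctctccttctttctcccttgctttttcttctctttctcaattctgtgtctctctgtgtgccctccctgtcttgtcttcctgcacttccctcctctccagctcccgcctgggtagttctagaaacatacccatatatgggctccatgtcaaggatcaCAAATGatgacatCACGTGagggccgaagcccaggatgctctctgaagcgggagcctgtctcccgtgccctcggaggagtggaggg
Trim63, chr4:134314870-134315169, plus strand: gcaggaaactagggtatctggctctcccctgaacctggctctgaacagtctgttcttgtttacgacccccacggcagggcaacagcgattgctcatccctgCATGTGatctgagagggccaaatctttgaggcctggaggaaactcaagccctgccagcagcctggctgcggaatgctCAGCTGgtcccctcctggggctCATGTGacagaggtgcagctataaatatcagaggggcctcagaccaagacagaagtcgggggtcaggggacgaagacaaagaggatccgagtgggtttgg
Klhl40, chr9:121777357-121777656, plus strand: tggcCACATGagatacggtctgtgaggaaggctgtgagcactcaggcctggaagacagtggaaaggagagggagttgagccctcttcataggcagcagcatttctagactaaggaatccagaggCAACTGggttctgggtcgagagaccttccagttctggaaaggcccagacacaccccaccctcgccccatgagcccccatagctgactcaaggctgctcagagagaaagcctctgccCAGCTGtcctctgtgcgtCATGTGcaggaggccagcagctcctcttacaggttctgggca
Ube2c, chr2:164769679-164769978, plus strand: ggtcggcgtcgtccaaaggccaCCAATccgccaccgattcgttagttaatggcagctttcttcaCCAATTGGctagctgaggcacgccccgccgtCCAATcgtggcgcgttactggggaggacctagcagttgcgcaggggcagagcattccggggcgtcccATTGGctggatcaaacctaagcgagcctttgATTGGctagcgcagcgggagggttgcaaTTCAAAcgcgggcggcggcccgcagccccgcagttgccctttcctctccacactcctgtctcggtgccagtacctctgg

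CANNTG, which reads the same on both strands, occurred 4 times in the Klhl41 window, 2 times in Asb2, 3 times in Trim63 and 4 times in Klhl40. It is common: 72.3% of the 32851 RefSeq promoter windows of this length held it, and 36 of the 58 windows found for the 73 genes did. Of 7 muscle genes with a window, 6 held it, and Klhl31 held 0. The narrower CAGCTG, one form of CANNTG, stood in 16.3% of all windows and in 14 of the 58, and among 7 muscle genes with a window it stood in Klhl41, Trim63, Trim54 and Klhl40. CCAAT, on either strand, was in 37.4% of all windows and in 20 of the 58, with 6 matches in Ube2c. TTTGAA, on either strand, was in 17.9% of all windows and in 6 of the 58, Ube2c and Fbxo5 among them. A match describes letters in the window and does not show that a factor binds there.

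The ligase genes of striated muscle gave the largest values in the comparison of differentiation with growth medium. Of 20 such names, 9 were listed: Trim54, Trim55, Trim63, Trim72, Klhl30, Klhl31, Klhl40, Klhl41 and Asb2. All 9 were at least 2-fold higher in Twist2 DM than in Twist2 GM, beside 26.5% of all listed genes, and all 9 in GFP DM than in GFP GM, beside 32.6%. Their median log2 ratio of CPM + 1 was 4.45 in Twist2 cells and 4.39 in GFP cells. Their summed level was 1280 CPM in Twist2 DM, 3744 CPM in GFP DM, 55.7 CPM in Twist2 GM and 211 CPM in GFP GM. Asb2, Trim54 and Trim63 were under 10 CPM in both growth libraries, so they could be listed only by reaching 10 CPM in both differentiation libraries, and their part in these counts and medians was largely fixed by entry to the table. The summed muscle markers, led by Myh3 and Acta1, were ordered in the same way over the 4 libraries, but Myod1 and Pax7 were not.

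**Figure D1:**
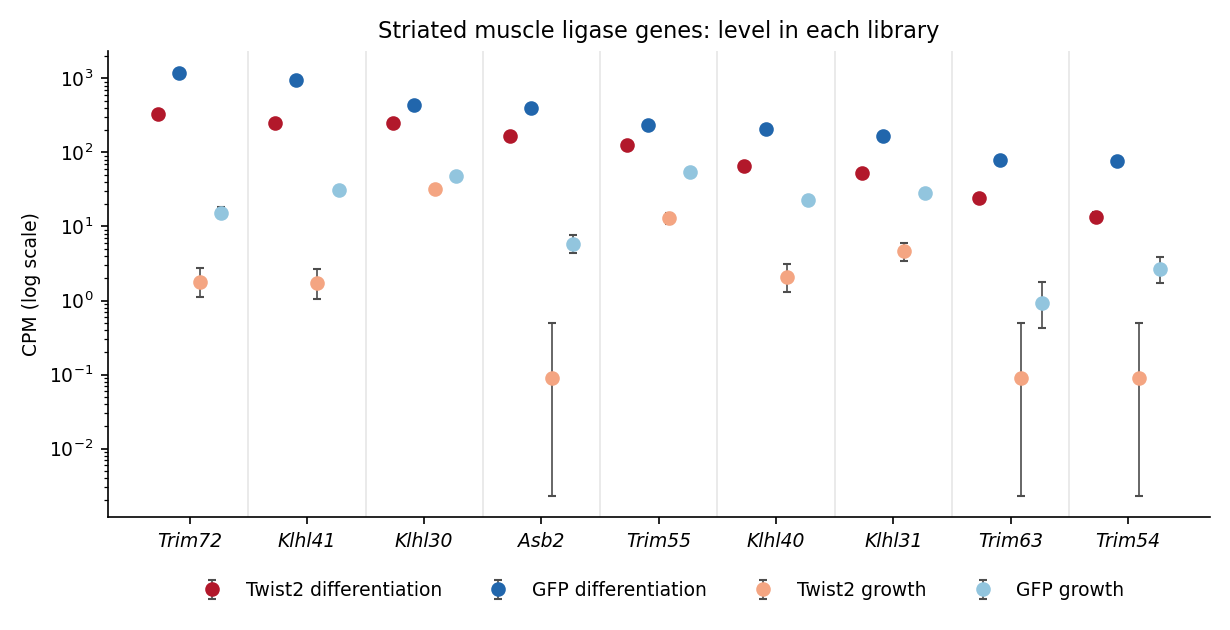
Levels of the 9 striated muscle genes in the 4 libraries, in CPM on a log axis, 1 point a library, with bars for the 95% counting interval. The differentiation libraries lie above the growth libraries for every gene, and Twist2 DM lies below GFP DM, as for Trim72 with 330 CPM against 1197 CPM.

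Trim72 (MG53), a Trim protein of the muscle membrane that takes part in its repair, was the most abundant of the 73 in GFP DM. It had 330 CPM in Twist2 DM and 1197 CPM in GFP DM, and 1.81 CPM (20 reads) in Twist2 GM and 15.4 CPM (150 reads) in GFP GM. Its log2 ratio of differentiation to growth medium was 6.88 in Twist2 cells and 6.19 in GFP cells. Twist2 DM was thus high against both growth libraries and low against GFP DM, with a log2 ratio to GFP DM of -1.85 (95% counting interval of the read ratio, -1.91 to -1.80). Intervals of this kind cover counting error only, not the spread between cultures.

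Klhl41 and Klhl40 are kelch proteins of the sarcomere, and changes in either gene cause nemaline myopathy in people. Klhl41, on chromosome 2 from 69670120 to 69684230, had 246 CPM in Twist2 DM, 947 CPM in GFP DM, 1.72 CPM (19 reads) in Twist2 GM and 31.2 CPM (304 reads) in GFP GM. Klhl40 had 66.4 CPM in Twist2 DM, 209 CPM in GFP DM, 2.08 CPM (23 reads) in Twist2 GM and 22.7 CPM (221 reads) in GFP GM. For both genes the Twist2 library was the lower one in each medium, and the log2 ratio of Twist2 to GFP cells was more negative in growth medium (-3.57 for Klhl41, -2.94 for Klhl40) than in differentiation medium (-1.94 and -1.64). The log2 ratio of differentiation to growth medium was 6.50 in Twist2 cells and 4.88 in GFP cells for Klhl41, and 4.45 in Twist2 cells and 3.15 in GFP cells for Klhl40.

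Asb2 is the substrate receptor of a Cul5 ligase that acts on filamins. It had 168 CPM in Twist2 DM and 397 CPM in GFP DM, against 1 read in Twist2 GM and 57 reads (5.85 CPM) in GFP GM. Its log2 ratio of 7.27 in Twist2 cells was the highest of any of the 73 genes in the 4 comparisons, but it rests on that 1 read: the counting interval runs from 8.38 to 16.16 without the added 1 CPM. In GFP cells the ratio was 5.86.

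The MuRF genes encode RING ligases of the sarcomere. Trim63 (MuRF1), known for its part in muscle atrophy, had 24.3 CPM in Twist2 DM, 79.9 CPM in GFP DM, 1 read in Twist2 GM and 9 reads in GFP GM. Trim54 (MuRF3), which binds microtubules, had 13.4 CPM in Twist2 DM, 75.8 CPM in GFP DM, 1 read in Twist2 GM and 26 reads in GFP GM. Trim55 (MuRF2) had 127 CPM in Twist2 DM, 237 CPM in GFP DM, 12.8 CPM in Twist2 GM and 54.7 CPM in GFP GM. Of the 3, only Trim55 was above 10 CPM in growth medium, and it had the smallest ratio of differentiation to growth medium, at 3.21 in Twist2 cells and 2.10 in GFP cells. Trim54 had the lowest log2 ratio of Twist2 DM to GFP DM of all 73 genes, -2.41 (-2.75 to -2.25).

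Klhl31, a kelch gene needed for normal skeletal muscle in mice, had 52.1 CPM in Twist2 DM, 167 CPM in GFP DM, 4.61 CPM in Twist2 GM and 28.5 CPM in GFP GM. Klhl30 had 253 CPM in Twist2 DM, 434 CPM in GFP DM, 32.3 CPM in Twist2 GM and 48.6 CPM in GFP GM. Klhl30 was the muscle gene nearest to equality between Twist2 and GFP cells, with a log2 ratio of -0.78 in differentiation medium and -0.57 in growth medium. Per kb of transcript, the 9 genes in GFP DM ran from 25.8 CPM for Klhl31 and 42.4 CPM for Trim63 to 375 CPM for Klhl41 and 561 CPM for Trim72.

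In growth medium, before differentiation, few of the 73 genes differed between Twist2 and GFP cells. A gene was counted when its higher library reached 10 CPM. Of 66 such genes, 7 were at least 2-fold lower in Twist2 GM, which is the share found over all listed genes (10.6%), and 0 were at least 2-fold higher, where 5.21% of all listed genes were. The median log2 ratio was -0.27 over all 73 genes, beside -0.10 over all listed genes. The 7 were Klhl41 (-3.57), Klhl40 (-2.94), Trim72 (-2.55), Klhl31 (-2.40), Trim55 (-2.01), Ube2d1 (-1.31) and Rnf128 (-1.07). The first 5 of these are striated muscle genes. With median-of-ratios size factors 6 were lower and 1 higher, Rnf128 being at -0.83.

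Ube2d1, a conjugating enzyme that serves many RING ligases, had 71.0 CPM in Twist2 GM and 177 CPM in GFP GM. In differentiation medium it had 127 CPM in Twist2 DM and 176 CPM in GFP DM, a log2 ratio of -0.47. Reads of its close relatives could be divided among them by the counting, which is not described. Rnf128 (GRAIL), a RING ligase best known from T cell anergy, had 30.6 CPM in Twist2 GM and 65.4 CPM in GFP GM, and 16.6 CPM in Twist2 DM and 57.8 CPM in GFP DM. It was lower with Twist2 in both media, at -1.07 and -1.74. Asb2, Trim54 and Trim63 had 1 read each in Twist2 GM and stayed under 10 CPM in GFP GM, so they were not counted in this comparison. The highest ratio in Twist2 GM was 0.85 for Trim47, which was not counted, with 8.58 CPM in Twist2 GM and 4.31 CPM in GFP GM. Of the genes counted, Ube2c was highest at 0.77, followed by Fbxo17 (0.66), Rnf122 (0.64) and Rnf26 (0.63). Rnf166 (0.27) and Fbxl19 (0.20) were also among the 8 highest counted.

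After differentiation the split was wider and ran mostly one way. Of 70 genes counted, 30 were at least 2-fold lower in Twist2 DM than in GFP DM (42.9%), beside 25.2% of all listed genes, and 8 were at least 2-fold higher (11.4%), beside 25.4%. The median log2 ratio was -0.71 over all 73 genes and -0.75 over the 70, against -0.06 over all listed genes. Without the striated muscle genes and the cell cycle genes Ube2c, Fbxo5 and Fbxw7, 22 of 59 counted genes were lower (37.3%) and 7 higher (11.9%). Scaled to the reads outside the table, which shifts all listed genes by a median of -0.58, 4 of the 73 were higher and 42 lower. The median was then -1.31 over the genes counted and -0.63 over all listed genes, so part of the 42 comes with that shift. This comparison and the differentiation response of GFP cells share the GFP DM library, so a high or low value there enters both.

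**Figure D2:**
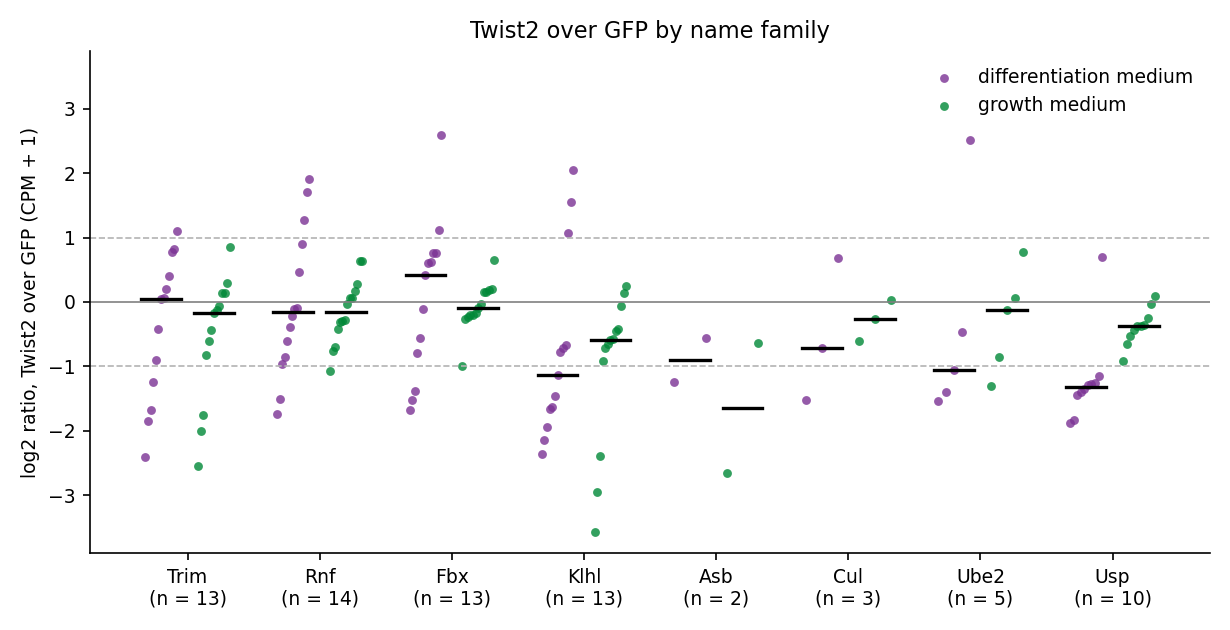
Log2 ratios of CPM + 1 of the 73 genes, by name family, for Twist2 against GFP in differentiation medium (purple) and in growth medium (green), with a bar for the family median and dashed lines at 2-fold, genes under 10 CPM included. In differentiation medium 9 of the 10 Usp genes lie below -1, and the Klhl genes spread from -2.35 to 2.06.

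By family, the share lower in Twist2 DM was highest among the deubiquitinases. Of 10 Usp genes, 9 were at least 2-fold lower (90%), beside 25.2% of all listed genes, with a median of -1.32. Usp28, which stabilises Myc in human cells, had 43.4 CPM in Twist2 DM, 162 CPM in GFP DM, 20.8 CPM in Twist2 GM and 27.1 CPM in GFP GM. Usp13 had 27.7 CPM in Twist2 DM, 75.04 CPM in GFP DM, 7.77 CPM in Twist2 GM and 8.005 CPM in GFP GM. Both were near level between the growth libraries and well apart after differentiation, with log2 ratios of Twist2 DM to GFP DM of -1.88 and -1.40.

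Usp9x, a deubiquitinase of many substrates on the X chromosome, had 143 CPM in Twist2 DM, 366 CPM in GFP DM, 313 CPM in Twist2 GM and 401 CPM in GFP GM. Usp34, which acts on axin in the Wnt pathway, had 84.0 CPM in Twist2 DM, 204 CPM in GFP DM, 200 CPM in Twist2 GM and 270 CPM in GFP GM. In both genes 3 libraries lay close together and Twist2 DM stood below them. Among the 73 genes, 5 were at least 2-fold lower in Twist2 DM than in each of the other 3 libraries: Usp9x, Usp34, Usp45, Ube2v2 and Fbxo30. That is 6.85% of the 73, beside 5.48% of all listed genes, a share near the background. Fbxo30 (MUSA1), an F-box gene of muscle atrophy in mice, had 23.8 CPM in Twist2 DM, 78.3 CPM in GFP DM, 56.6 CPM in Twist2 GM and 68.1 CPM in GFP GM. Usp22, the deubiquitinase of the SAGA complex, was the Usp gene that was not lower, with 130 CPM in Twist2 DM, 79.5 CPM in GFP DM, 216 CPM in Twist2 GM and 202 CPM in GFP GM.

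The Usp genes have long transcripts, with a median of 6094 bases against 3997 over all listed genes, and long genes as a whole were lower in Twist2 DM. Over 5 length groups of listed genes, the median log2 ratio of Twist2 DM to GFP DM was 0.39, 0.29, 0.06, -0.25 and -0.78 from the shortest to the longest. The 73 genes had medians of -0.02, -0.84, -0.80, -0.60 and -0.85 in the same groups, so they lay below all listed genes in every group, with the widest gap in the second group and the narrowest in the longest. After each gene was set against the median of its length group, 9 Usp genes were still below it, and 4 of them (Usp28, Usp53, Usp2 and Usp45) by at least 2-fold. Over all 73 genes, 26 were then at least 2-fold lower, 23 of them among the 30, beside 22.5% of all listed genes.

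**Figure D3:**
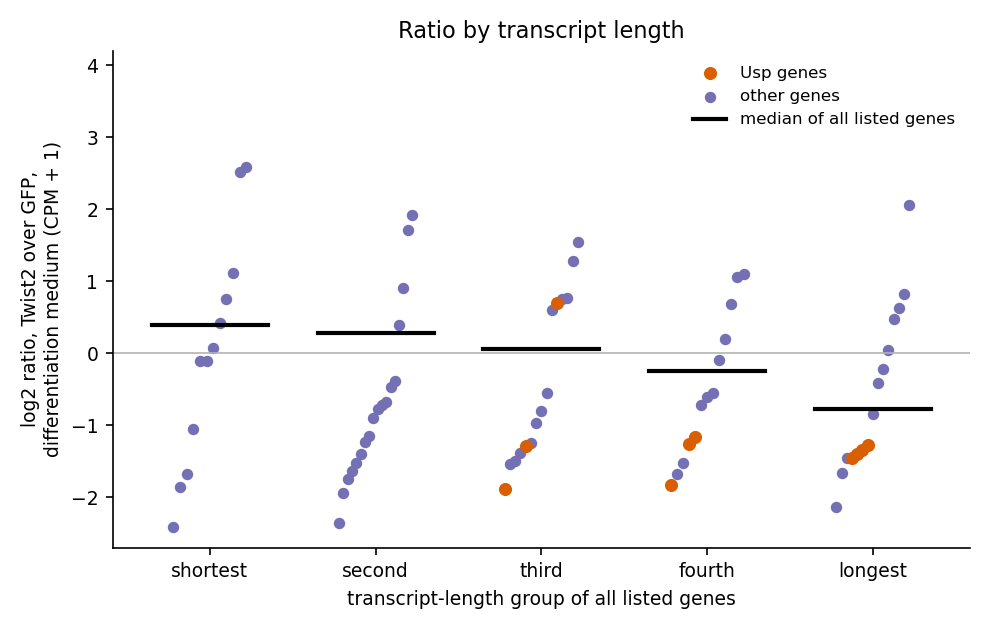
Log2 ratio (CPM + 1) of Twist2 DM to GFP DM for the 73 genes, 1 point a gene, in 5 groups of transcript length, with Usp genes in orange and a black bar for the median of all listed genes. The bar stands at 0.39 for the shortest transcripts and -0.78 for the longest, and 9 of the 10 Usp points lie below the bar of their group.

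Among the kelch genes, 7 of 13 were at least 2-fold lower in Twist2 DM (53.8%), beside 25.2% of all listed genes. The muscle genes Klhl31, Klhl40 and Klhl41, described above, are among these 7. At least 2-fold higher were 3 (23.1%), beside 25.4%, a share near the background. Klhl13, which with Klhl9 directs a Cul3 ligase to Aurora B in human cells, had 170 CPM in Twist2 DM, 872 CPM in GFP DM, 22.6 CPM in Twist2 GM and 37.6 CPM in GFP GM. Klhl28 had 6.71 CPM in Twist2 DM, 32.9 CPM in GFP DM, 11.5 CPM in Twist2 GM and 17.9 CPM in GFP GM. Both had their highest level in GFP DM, and their log2 ratios of Twist2 DM to GFP DM were -2.35 and -2.14. Klhl42 was the kelch gene at the other end, with 31.1 CPM in Twist2 DM, 6.71 CPM in GFP DM, 31.4 CPM in Twist2 GM and 32.8 CPM in GFP GM. There 3 libraries were level and GFP DM was low. Klhl5 had 132 CPM in Twist2 DM, 44.6 CPM in GFP DM, 66.1 CPM in Twist2 GM and 55.3 CPM in GFP GM, and Twist2 DM was the high library.

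Among the other ligases, Trim genes were lower in 4 of 12 with 0 higher, F-box genes in 3 of 12 with 1 higher, and Rnf genes in 2 of 13 with 3 higher. The shares lower were 33.3%, 25% and 15.4%, beside 25.2% of all listed genes. The shares higher were 0%, 8.33% and 23.1%, beside 25.4%. F-box genes were thus at the background for lower values, and the Rnf share lower rests on 2 genes. Trim54, Trim63 and Trim72 among the 4 lower Trim genes are muscle genes described above. Rnf11, a RING protein that works with HECT ligases, had 234 CPM in Twist2 DM, 665 CPM in GFP DM, 136 CPM in Twist2 GM and 182 CPM in GFP GM. Cul5, the scaffold used by Asb2, had 49.5 CPM in Twist2 DM, 144 CPM in GFP DM, 72.8 CPM in Twist2 GM and 112 CPM in GFP GM. Cul5 was the lowest of the 3 listed cullins against GFP DM, at -1.52, while Cul4b was at -0.71 and Cul7 at 0.69.

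Of the conjugating enzymes, 3 of 5 were at least 2-fold lower in Twist2 DM (60%), beside 25.2% of all listed genes. Ube2c was the 1 at least 2-fold higher (20%), beside 25.4%. Ube2g2, the conjugating enzyme of degradation from the endoplasmic reticulum, had 285 CPM in Twist2 DM, 590 CPM in GFP DM, 83.8 CPM in Twist2 GM and 80.3 CPM in GFP GM. It was higher in both differentiation libraries than in the growth libraries, and its log2 ratio of Twist2 DM to GFP DM was -1.05. Ube2v2, a partner of Ube2n in chains linked through lysine 63, had 5.58 CPM in Twist2 DM, 18.1 CPM in GFP DM, 14.3 CPM in Twist2 GM and 26.7 CPM in GFP GM; its near copy Ube2v1 could share reads with it.

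Ube2c and Fbxo5 are not subunits of the anaphase promoting complex, a ligase of mitosis, but act with or on it: Ube2c is its conjugating enzyme and Fbxo5 (Emi1) its inhibitor. Ube2c had 17.1 CPM (212 reads) in Twist2 DM, 2.17 CPM (20 reads) in GFP DM, 128 CPM in Twist2 GM and 74.5 CPM in GFP GM. Fbxo5 had 7.60 CPM (94 reads) in Twist2 DM, 4 reads in GFP DM, 30.2 CPM in Twist2 GM and 26.5 CPM in GFP GM. Both were at least 2-fold lower in differentiation than in growth medium in either kind of cell, and higher in Twist2 DM than in GFP DM, with log2 ratios of 2.52 for Ube2c (2.32 to 3.73) and 2.59 for Fbxo5, which stayed under 10 CPM in both libraries. Ube2c exons overlap Tnnc2 on the other strand, and the strand setting of the counts is not given in the sources used here. Tnnc2 had 723 CPM in Twist2 DM, 2047 CPM in GFP DM, 1.36 CPM in Twist2 GM and 8.005 CPM in GFP GM, and its part in the Ube2c values was not tested.

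The third listed cell cycle gene, Fbxw7, went the other way. Fbxw7 is the F-box protein for cyclin E and Myc, and had 16.8 CPM in Twist2 DM, 45.7 CPM in GFP DM, 20.2 CPM in Twist2 GM and 18.2 CPM in GFP GM. Here GFP DM alone was high. The other genes at least 2-fold higher in Twist2 DM were Klhl42 (2.06), Rnf149 (1.91), Rnf26 (1.71), Klhl5 (1.55), Rnf145 (1.28), Fbxo25 (1.11) and Klhl23 (1.07). Rnf26, a RING protein of the endoplasmic reticulum, had 36.2 CPM in Twist2 DM, 10.4 CPM in GFP DM, 72.9 CPM in Twist2 GM and 46.7 CPM in GFP GM. Its exons overlap 4 annotated genes, Mfrp and Gm49380 among them. With libraries scaled to the reads outside the table, Klhl5, Rnf145, Fbxo25 and Klhl23 came within 2-fold, and Ube2c, Klhl42, Rnf149 and Rnf26 did not.

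**Figure D4:**
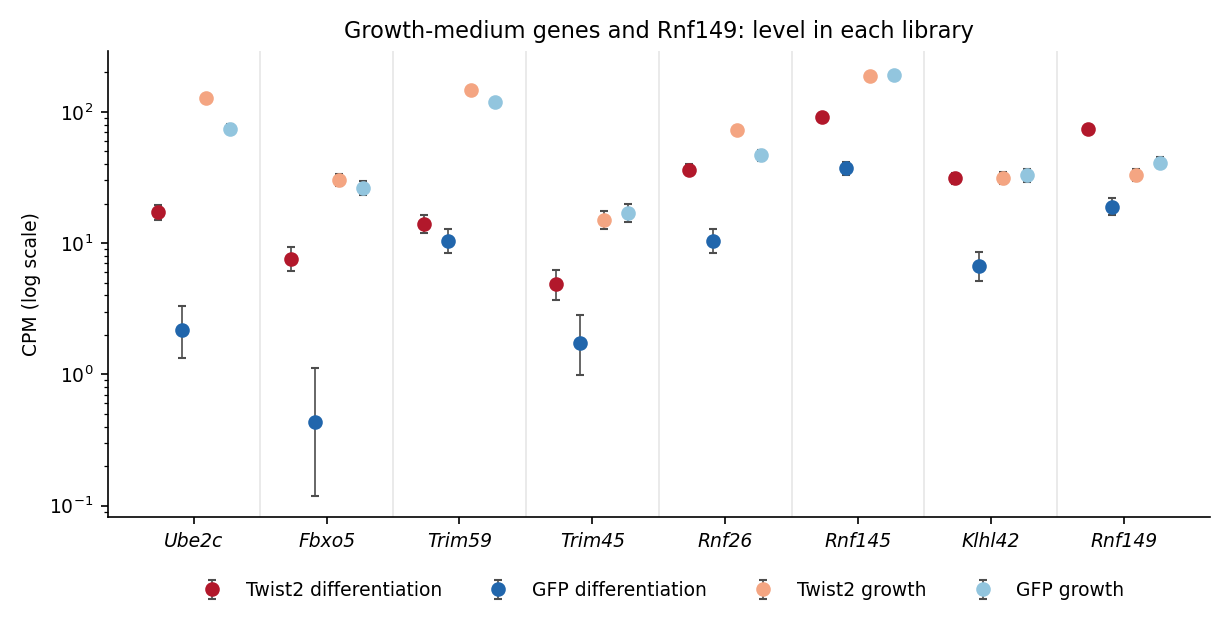
Levels of 8 genes in the 4 libraries, in CPM on a log axis, 1 point a library, with bars for the 95% counting interval. GFP DM is the lowest library for every gene shown, as for Ube2c with 17.1 CPM in Twist2 DM and 2.17 CPM in GFP DM, and Rnf149 is the 1 gene whose highest library is Twist2 DM.

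The differentiation response was then taken over all 73 genes. In Twist2 cells, 21 of 72 genes were at least 2-fold higher in Twist2 DM than in Twist2 GM (29.2%), beside 26.5% of all listed genes, and 14 were at least 2-fold lower (19.4%), beside 24.5%. The median was -0.22 over all 73 genes and -0.21 over the 72, beside -0.22 over all listed genes. In GFP cells, 29 of 73 were at least 2-fold higher in GFP DM than in GFP GM (39.7%), beside 32.6%, and 24 were at least 2-fold lower (32.9%), beside 40.9%. The median was 0.14, against -0.40 over all listed genes. The choice of genes for the table raises such shares in GFP cells, since a 2-fold difference from GFP GM put a gene in the table. Scaled to the reads outside the table, 26 were higher and 6 lower in Twist2 cells, with a median of 0.10 over the genes counted. In GFP cells 35 were then higher and 7 lower. The medians over all listed genes were 0.03 in Twist2 cells and 0.37 in GFP cells at that scaling. With size factors 32 were higher and 9 lower in GFP cells, and the median over all listed genes was -0.07.

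Set side by side, 18 genes were at least 2-fold higher in both responses and 8 were at least 2-fold lower in both. These are 24.7% and 11.0% of the 73, beside 20.2% and 16.1% of all listed genes. The 18 hold all 9 muscle genes, and also Klhl13, Ube2g2, Usp13, Usp20, Usp2, Usp28, Asb1, Fbxo17 and Fbxl22. Fbxl22, an F-box protein of the sarcomere known from mouse heart, had 26.5 CPM in Twist2 DM, 46.7 CPM in GFP DM, 3 reads in Twist2 GM and 15 reads in GFP GM. The 8 lower genes were Ube2c, Fbxo5, Trim59, Rnf145, Trim45, Rnf138, Trim2 and Trim33. Fbxl22 and Usp13, like Asb2, Trim54 and Trim63, were under 10 CPM in both growth libraries. Fbxo5, Trim45 and Rnf138 were under 10 CPM in both differentiation libraries. The direction of these genes was thus largely fixed by entry to the table. Trim59 had the lowest ratio in Twist2 cells, -3.30, with 14.0 CPM in Twist2 DM and 146 CPM in Twist2 GM, and was at -3.39 in GFP cells, with 10.4 CPM in GFP DM and 119 CPM in GFP GM. Trim33, which acts on Smad4 signalling, was at -1.06 in Twist2 cells and -1.07 in GFP cells.

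A further 11 genes were higher in GFP DM and within 2-fold in Twist2 cells, Rnf11, Fbxw7, Fbxl2 and Ube2q2 among them, and 15 were lower in GFP DM and within 2-fold in Twist2 cells, Klhl42, Rnf26, Usp22 and Cul7 among them. These are 15.1% and 20.5% of the 73, beside 11.4% and 23.1% of all listed genes, so both shares are near the background. Rnf2 (RING1B), the RING ligase of Polycomb, together with Klhl11 and Fbxo11, was within 2-fold in all 4 comparisons. Rnf123 (KPC1), a RING ligase for the cell cycle inhibitor p27, had 88.9 CPM in Twist2 DM, 135 CPM in GFP DM, 56.1 CPM in Twist2 GM and 53.6 CPM in GFP GM, and was one of the 11. Fbxo21 (SMART), an F-box gene of muscle atrophy in mice, was one of the 15, with 46.2 CPM in Twist2 DM, 26.9 CPM in GFP DM, 68.4 CPM in Twist2 GM and 72.9 CPM in GFP GM. Among the genes named here for atrophy, Fbxo30 (-1.68) and Trim63 (-1.68) were at least 2-fold lower in Twist2 DM than in GFP DM. Fbxo21 was higher there, but within 2-fold (0.76). Rnf2 had 35.03 CPM in Twist2 DM, 46.0 CPM in GFP DM, 64.5 CPM in Twist2 GM and 78.6 CPM in GFP GM.

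**Figure D5:**
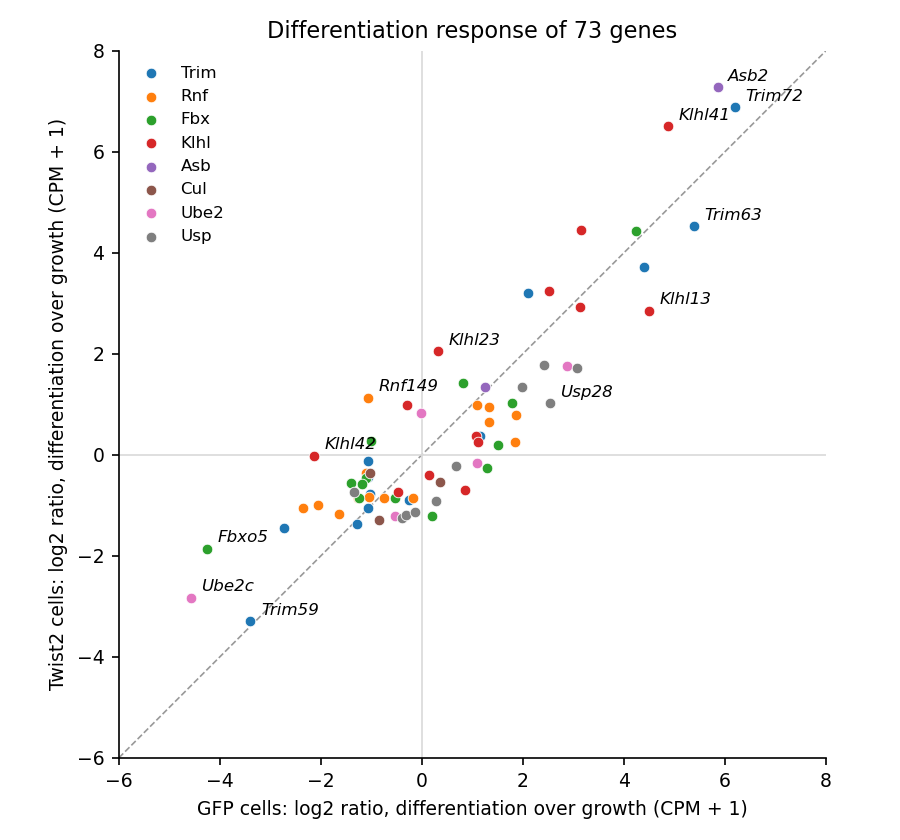
Log2 ratio (CPM + 1) of differentiation to growth medium in Twist2 cells (vertical axis) against that in GFP cells (horizontal axis), 1 point for each of the 73 genes, coloured by name family, with a dashed line of equality. Asb2, Trim72 and Klhl41 lie at the top right, Ube2c, Fbxo5 and Trim59 at the lower left, and Rnf149 lies at 1.13 in Twist2 cells and -1.07 in GFP cells.

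The 2 responses differed by 1 or more on the log2 scale in 26 genes: the Twist2 response minus the GFP response was at least 1 in 14 (19.2%), beside 25.5% of all listed genes, and at most -1 in 12 (16.4%), beside 12.6%. This split depended on the scaling: it was 10 and 21 with size factors, and 5 and 30 scaled to the reads outside the table. The largest were Fbxo5 (2.40), Rnf149 (2.21), Klhl42 (2.12), Ube2c (1.75) and Klhl23 (1.73). The first place of Fbxo5 rests on 4 reads in GFP DM: its ratio in GFP cells was -4.26, and -2.53 with 5 CPM added in place of 1. The smallest were Klhl13 (-1.64), Rnf122 (-1.60), Klhl28 (-1.54), Fbxw7 (-1.54) and Usp28 (-1.51). Of the 9 muscle genes, 4 were at 1 or more (44.4%) and 0 at -1 or less, with a median of 0.73. Yet all 9 were lower in Twist2 DM than in GFP DM, 7 of them at least 2-fold (77.8%), beside 25.2% of all listed genes. The 4 are Klhl41, Asb2, Klhl40 and Trim55, with the Asb2 value resting on 1 read in Twist2 GM. All 9 muscle genes were lower in Twist2 GM than in GFP GM. Trim72 (-2.55) and Klhl31 (-2.40) were lower there by more than Trim55 (-2.01), with differences of responses of 0.69 and 0.73. These differences, the count of 4 and the median depend on the added 1 CPM, because growth counts were low. Without it, Trim72 was 183-fold higher in Twist2 cells and 77.7-fold in GFP cells, and Trim55 9.87-fold and 4.34-fold. Trim54 turned from a difference of -0.66 to 149-fold against 28.4-fold, and Trim63 from -0.86 to 269-fold against 86.5-fold. Both had 1 read in Twist2 GM.

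Rnf149, a RING ligase, had 74.2 CPM in Twist2 DM, 18.9 CPM in GFP DM, 33.2 CPM in Twist2 GM and 40.9 CPM in GFP GM. Twist2 DM was its highest library and GFP DM its lowest, with the growth libraries close together. Rnf122 had 13.2 CPM in Twist2 DM, 26.6 CPM in GFP DM, 10.9 CPM in Twist2 GM and 6.67 CPM in GFP GM. Klhl23 had 48.5 CPM in Twist2 DM, 22.6 CPM in GFP DM, 10.9 CPM in Twist2 GM and 17.9 CPM in GFP GM, so that it was highest in Twist2 DM and lowest in Twist2 GM.

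The order GFP DM, Twist2 DM, GFP GM, Twist2 GM from highest to lowest was the most frequent among the 73 genes, with 18 (24.7%), beside 18.8% of all listed genes. The order Twist2 GM, GFP GM, Twist2 DM, GFP DM followed with 12 (16.4%), beside 19.0%.

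Other genes of the ubiquitin pathway, taken from a list of further names, were listed 33 times. Of these, 7 of 29 were at least 2-fold higher and 11 of 29 at least 2-fold lower in Twist2 DM than in GFP DM, with a median of -0.67. These are 24.1% and 37.9%, beside 25.4% and 25.2% of all listed genes. Cdc20, an activator of the anaphase promoting complex, had 14.6 CPM in Twist2 DM, 1.19 CPM in GFP DM, 147 CPM in Twist2 GM and 65.4 CPM in GFP GM. Uhrf1, a RING protein of DNA methylation upkeep, had the highest ratio of Twist2 DM to GFP DM, at 3.12, and the HECT ligase Wwp1 the lowest, at -2.03. In growth medium 1 of 30 was at least 2-fold higher in Twist2 GM and 3 were lower, which is 3.33% and 10%, beside 5.21% and 10.6%. Of 45 proteasome genes Psmc3 was listed, and of 4 ubiquitin genes 0 were.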

How the data were processed

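Total RNA was sequenced from 1 library for each of 4 groups. Per the labels' protocols, standard Illumina libraries were made. The submitters' processing notes list GRCm38, mm10, DESeq2 1.6.3 and TopHat2 2.0.0 without their roles. No read counter, annotation or strand setting is given in the sources used here. CPM values are as the authors deposited them, for 3760 genes. The authors' deposited log2 ratios against GFP GM match log2 ratios of CPM + 1. All CPM values were whole multiples of 1 read, within 3.95e-07 reads, which gave reads and library totals. From these, log2 ratios of CPM + 1 were computed for 4 comparisons, and a gene was counted as higher or lower at 2-fold or more provided that its higher library reached 10 CPM. The 95% intervals are exact Clopper-Pearson intervals of the read ratio, without the added 1 CPM. They cover counting error only, as does the floor of 3 reads behind a 0, and the labels mention no molecular identifiers. No test was possible with 1 library a group. The calculation was checked on simulated data of 3760 genes: 99% of 3-fold differences were recovered for Twist2 against GFP in differentiation medium. Positions and lengths come from GENCODE M21, to which 3607 symbols matched, all 73 included. Promoters come from RefSeq for 58 of the 73. The genes and lists were chosen with earlier results of these data known. Named were the muscle genes, the 8 highest and 8 lowest of each comparison, the ends of each family and the 5 largest and smallest differences of responses. Other names were chosen after their values were seen. Python 3.11.15, numpy 2.4.6, pandas 2.3.3, SciPy 1.17.1 and matplotlib 3.10.9 were used.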

Additional observations from a re-analysis of the deposited data

Results flagged for a closer look

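Rnf149 was flagged because its value moved in opposite directions in the 2 kinds of cell: the log2 ratio of differentiation to growth medium was 1.13 in Twist2 cells and -1.07 in GFP cells. It was the 1 gene of the 73 with that pattern at 2-fold (1.37%), beside 37 of the 3760 listed genes (0.98%), a share near the background. The difference was not tested, since each group has 1 library. Under 4 alternatives the value in Twist2 cells stayed past 2-fold, between 1.05 and 1.38, while that in GFP cells came within 2-fold under 3 of them, at -0.30 scaled to the reads outside the table, -0.73 with size factors and -0.94 with 5 CPM added. Exons of Rnf149 overlap Gm15832 on the same strand, and how their reads were divided was not tested.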

How the results depend on the processing

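No paired analysis was possible because each group holds 1 library and the labels carry no replicate numbers, so no library could be left out either. With median-of-ratios size factors, all listed genes shifted by a median of 0.24 in growth medium and 0.34 for GFP differentiation; 1 gene was then higher in Twist2 GM, 9 were lower in GFP DM than in GFP GM and 21 had a difference of responses of -1 or less. Scaled to reads outside the table, the shift was -0.58 for Twist2 against GFP DM, 0.78 for GFP and 0.25 for Twist2 differentiation. Then 4 genes were higher in Twist2 DM than in GFP DM, 7 were lower in GFP DM than in GFP GM and 6 were lower in Twist2 DM than in Twist2 GM, where the median of the genes counted turned to 0.10; the difference of responses was 1 or more in 5 and -1 or less in 30. With 5 CPM added in place of 1, that difference was 1 or more in 7. At 3-fold, 4 were higher and 12 lower in Twist2 DM than in GFP DM, 19 higher and 8 lower in GFP DM than in GFP GM, and 3 lower in Twist2 DM than in Twist2 GM, and the responses differed upwards in 6 and downwards in 2. For these settings the share over all listed genes is not given here, so the counts are not read against a background. Centred on transcript-length groups, a choice made after seeing the data, 10 were lower in GFP DM than in GFP GM, beside 25.6% of all listed genes. In Twist2 DM 6 were then lower than in Twist2 GM, beside 18.5%. Across the scaling and pseudocount settings at 2-fold, 29 of the 30 genes lower and 4 of the 8 higher in Twist2 DM kept that status, as did 6 of the 7 lower in Twist2 GM. Of the genes higher in differentiation, 19 of 21 in Twist2 cells and 26 of 29 in GFP cells did, but of the lower ones 6 of 14 and 7 of 24. Both alternative scalings lowered the ratios of Twist2 DM to GFP DM (median shifts of -0.06 and -0.58) and raised both differentiation responses. Scaling could thus hardly remove a gene from the lower side of the former or the higher side of the latter. The kept counts therefore do not compare the firmness of the 2 directions. Low counts limit the growth medium values of Asb2, Trim54 and Trim63.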
